A study of Mus musculus with 42 samples.

Results

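Folliculin (Flcn), its binding partners Fnip1 and Fnip2, and the transcription factors Tfeb, Tfe3 and Mitf were followed in RNA-seq counts of mouse bone-marrow-derived macrophages (BMDM). These 6 genes were chosen by symbol, for their place in a single lysosomal signalling pathway, with earlier results of these data known. They are 6 of the 37310 genes in the count table. All 6 passed the filter on low counts, which left 11624 genes for testing. BMDM are macrophages grown in culture from bone marrow, here in medium conditioned by L929 cells. The 42 libraries fell into 14 groups of 3. Cells came from young adult male mice in which floxed Irf5 alleles (interferon regulatory factor 5) were crossed with LysM-Cre, a Cre recombinase inserted into Lyz2 and active in myeloid cells (labelled KO), or from wild-type mice (labelled WT). Each genotype was sampled in 7 conditions, Control at 0, 2 and 24 h, palmitate (a saturated fatty acid) at 2 and 24 h, and bacterial lipopolysaccharide (LPS) at 2 and 24 h. The labels do not say whether the 3 libraries of a group came from separate mice or cultures, so p-values measure the spread between these libraries only, which may be technical.

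Folliculin and an FNIP protein form a complex on the surface of the lysosome, where they act on the GTP state of RagC and RagD when amino acids are present. In that state the mTORC1 kinase phosphorylates TFEB, TFE3 and MITF and holds them in the cytoplasm, and cells that lose folliculin accumulate TFEB and TFE3 in the nucleus. TFEB and its relatives bind short E-box sequences in promoters of lysosomal and autophagy genes, and in macrophages they are known for roles in lysosome biogenesis, phagocytosis and inflammatory gene expression. Much of this control acts on protein phosphorylation and location, which transcript counts do not measure.

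Total counts per library lay between 2848793 and 7743442, with a median of 5625399, and a count of 3 corresponded to 0.387 to 1.05 CPM (a gene's counts per 1000000 counts of its library, scaled between libraries). The genes described here had from 58 counts (Tfeb) to 5087 counts (Fnip2) in a library. Irf5 did not follow its label. Averaged over the 7 conditions it was higher in the libraries labelled KO by a log2 fold change of 0.27 (adjusted p 8.09e-14, SE 0.02), while Lyz2, the gene that carries the Cre, was lower (-0.84, adjusted p 1.86e-24, SE 0.04). Libraries are therefore named by their label throughout. The 6 macrophage markers (among them Adgre1, Csf1r and Cd68) summed to 4709.7 to 8747 CPM in each library, and T or NK cell markers to at most 1.44 CPM. LPS raised the cytokine gene Tnf at 2 h by a log2 fold change of 4.77 in the libraries labelled WT and 4.65 in those labelled KO. Palmitate raised the lipid droplet gene Plin2 at 24 h by 1.99 and 2.02. Here and below, an adjusted p comes from the quasi-likelihood F test of edgeR with Benjamini-Hochberg adjustment over the 11624 genes, and a gene is called at an adjusted p under 0.05.

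The 3 genes of the folliculin complex lie apart in the GRCm38 (mm10) assembly. Flcn is on chromosome 11, from 59791408 to 59810016 on the minus strand, and Fnip1 lies on the plus strand of the same chromosome, from 54438199 to 54518235. Fnip2 is on chromosome 3, from 79455974 to 79567796 on the minus strand. Tfeb is on chromosome 17 (47737030 to 47792419), Tfe3 on chromosome X (7762560 to 7775202) and Mitf on chromosome 6 (97807052 to 98021349), all on the plus strand. Annotated genes overlap the introns of Fnip1, Fnip2 and Mitf but share 0 exon bases with them and had at most 18 counts in a library.

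For the 3 genes of the complex 100 bases upstream of the start are shown, because a single member carries the E-box CACGTG, the core of sites that the TFEB family binds. Capitals mark that E-box, and the sequences are given 5′ to 3′ on the strand of the gene from RefSeq (GRCm38.p6). Coordinates are chr11:59810040-59810139 on the minus strand for Flcn, chr11:54438079-54438178 on the plus strand for Fnip1 and chr3:79567797-79567896 on the minus strand for Fnip2.
Flcn: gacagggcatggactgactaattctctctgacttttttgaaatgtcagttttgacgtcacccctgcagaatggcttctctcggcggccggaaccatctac
Fnip1: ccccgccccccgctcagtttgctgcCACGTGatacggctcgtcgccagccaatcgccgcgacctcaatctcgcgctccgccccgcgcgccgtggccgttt
Fnip2: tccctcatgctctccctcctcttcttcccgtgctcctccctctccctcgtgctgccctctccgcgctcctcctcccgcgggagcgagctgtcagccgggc
The stretches of Flcn and Fnip1 run from 100 to 1 bases before the RefSeq start. That of Fnip2 runs from 217 to 118 bases before it, since the GENCODE annotation begins the gene farther upstream. The E-box of Fnip1 begins 75 bases upstream of its RefSeq start. G and C made up 72% of these bases in Fnip1, 70% in Fnip2 and 50% in Flcn. In windows from 250 bases before to 50 after a RefSeq start, CACGTG was found in 1 of the 11 windows of the 6 genes and in 7.15% of all 32851 promoters, searched on both strands. The related E-box CATGTG was in 0 of the 11 windows and in 14.2% of promoters, and the core letters of an interferon response element, GAAA and again GAAA with any 2 bases between, in 0 of the 11 and in 3.44%. None of these motifs contains another. A match describes the letters of a window, and a missing match says only that they are not in it.

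Untreated macrophages held far more Fnip2 than any other of the 6 transcripts. Per kilobase of annotated exon, the level in the libraries labelled WT at Control 0 h was 82.3 ± 1.68 CPM per kb for Fnip2 (SD, n = 3, as for every mean below). It was 31.5 ± 0.947 for Mitf, 23.5 ± 0.273 for Fnip1, 15.3 ± 0.395 for Flcn, 15.1 ± 1.40 for Tfe3 and 7.16 ± 0.393 CPM per kb for Tfeb. Neighbours in this order did not overlap over the 3 libraries, except Flcn and Tfe3. With the longest transcript as the length, Tfe3 (22.1 CPM per kb) stood above Flcn (18.6), and Flcn overlapped Tfeb (17.3), so that the order of these 3 depended on the length used. At LPS 2 h in the libraries labelled WT, Tfe3 stood at 20.2 ± 1.11 and Flcn at 8.95 ± 1.15 CPM per kb without overlap, and with either length Tfe3 was then above Flcn.

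**Figure D1:**
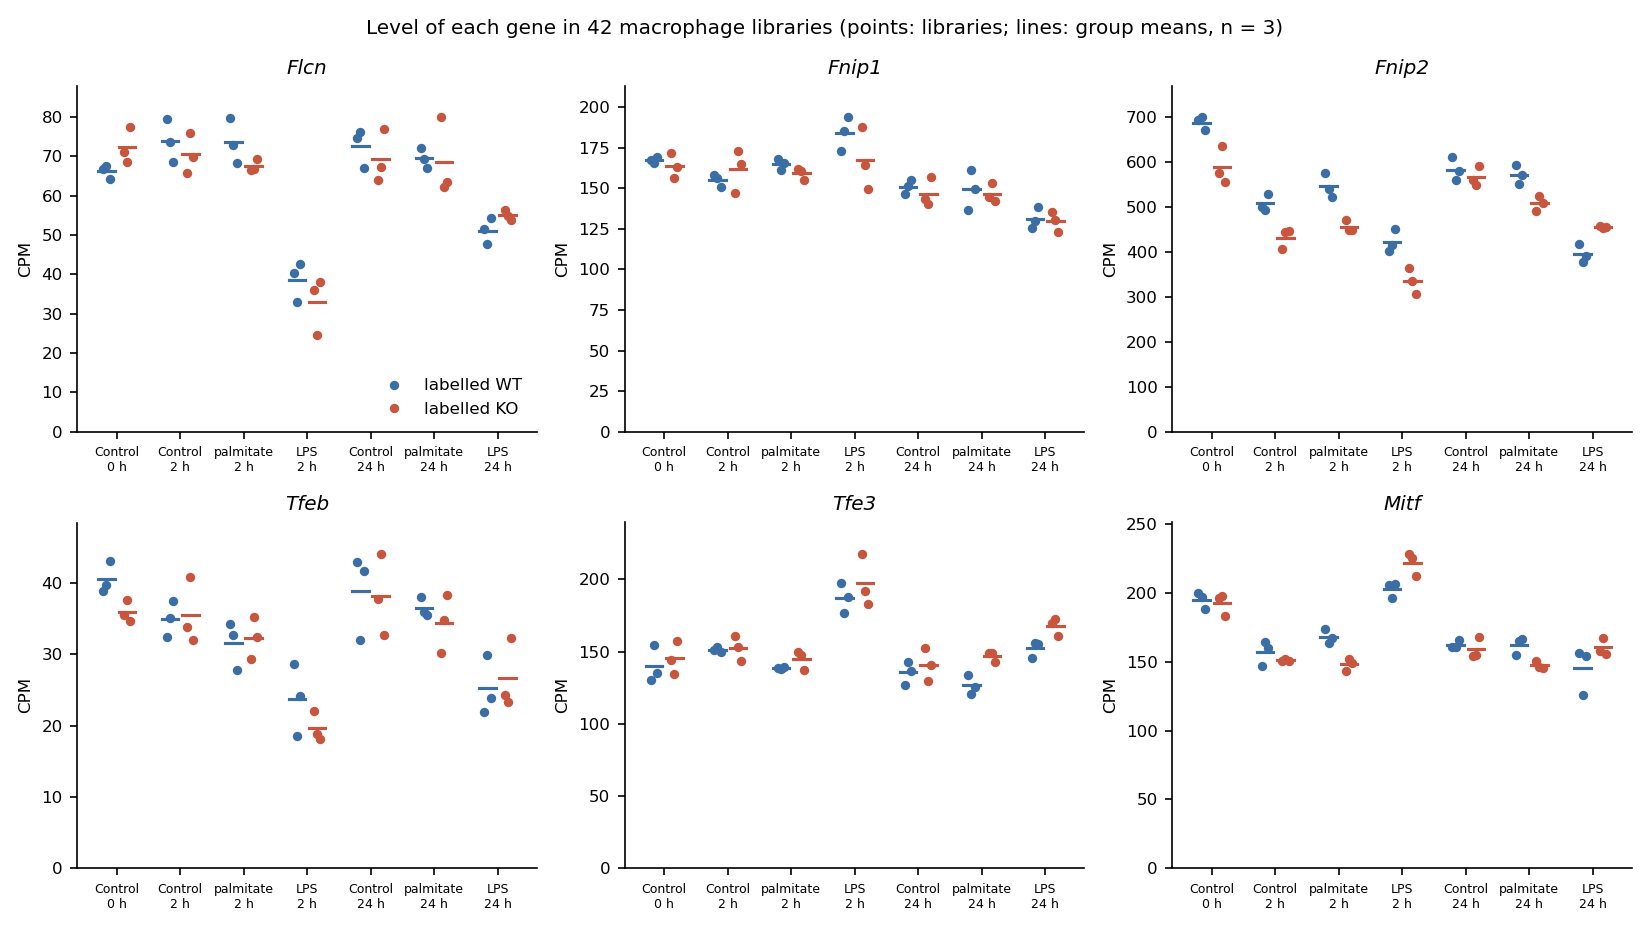
CPM of each of the 6 genes (y axis, from 0) in the 7 conditions (x axis), with a point for each library and a line for each group mean, libraries labelled WT in blue and KO in red. Flcn and Tfeb are lowest at LPS 2 h, where the group means of Flcn are 38.7 CPM in WT and 32.9 CPM in KO, while Tfe3 and Mitf are highest there in the libraries labelled KO.

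LPS at 2 h was compared with Control at 2 h within each genotype label, to ask which genes of the pathway respond early to an inflammatory stimulus. Flcn, Fnip2 and Tfeb fell and Tfe3 and Mitf rose in both. Of the 6 genes, 6 were called in the libraries labelled WT (3 higher, 3 lower), against 23.1% of all genes tested (14% higher, 9.1% lower), and 5 in those labelled KO (2 higher, 3 lower), against 23.9% (14.7% and 9.16%). LPS and Control libraries did not overlap for 6 of the 6 genes in WT and 5 in KO, against 35.2% and 34.1% of all genes. Their median log2 fold change was -0.01 in WT and -0.17 in KO, and that of all genes -0.01 in both.

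Flcn, the subunit with which both FNIP proteins pair, had the largest change of the 6 in both labels. In the libraries labelled WT its level was 79.4, 73.6 and 68.6 CPM at Control 2 h and 40.4, 33.1 and 42.5 CPM at LPS 2 h. In those labelled KO it was 65.9, 75.9 and 69.7 CPM at Control 2 h and 36.1, 24.5 and 38.1 CPM at LPS 2 h. Every LPS library lay below every Control library, and the log2 fold change was -0.93 (adjusted p 1.05e-09, SE 0.11) in WT and -1.12 (adjusted p 1.64e-11, SE 0.11) in KO. Among the partners, Fnip2 had 501, 495 and 529 CPM at Control 2 h and 402, 417 and 451 CPM at LPS 2 h in the libraries labelled WT. Under the KO label the values were 407, 444 and 448 CPM, then 365, 336 and 306 CPM. The groups again did not overlap, with log2 fold changes of -0.26 (adjusted p 0.000641, SE 0.06) in WT and -0.37 (adjusted p 2.83e-06, SE 0.06) in KO. Fnip1 went from 158, 156 and 151 CPM to 173, 185 and 194 CPM in the libraries labelled WT, a log2 fold change of 0.25 (adjusted p 0.00506, SE 0.07). That call was lost without LPS 2 h library 3 (0.21, adjusted p 0.0523). In those labelled KO, Fnip1 had 147, 173 and 165 CPM at Control 2 h and 188, 164 and 149.6 CPM at LPS 2 h, which overlapped (log2 fold change 0.04, adjusted p 0.756, SE 0.07). The genotype labels were not shown to differ in this response, since the interaction was -0.21 (adjusted p 0.671, SE 0.10).

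The transcription factors divided. Tfeb, known as the main driver of lysosomal gene expression among them, had 32.5, 35.1 and 37.5 CPM at Control 2 h and 28.6, 18.5 and 24.1 CPM at LPS 2 h in the libraries labelled WT. In those labelled KO it had 33.8, 40.8 and 32.1 CPM, then 22, 18.8 and 18.2 CPM. Every LPS library was below every Control library, with log2 fold changes of -0.59 (adjusted p 0.00172, SE 0.15) and -0.87 (adjusted p 9.96e-06, SE 0.15). Tfe3, its close relative, rose from 151, 153 and 149.5 CPM to 197, 177 and 188 CPM in the libraries labelled WT (log2 fold change 0.30, adjusted p 0.00085, SE 0.07). Under the KO label it rose from 161, 153 and 143 CPM to 218, 192 and 183 CPM (0.37, adjusted p 5.65e-05, SE 0.07). Mitf, known for its roles in pigment cells, mast cells and osteoclasts, rose from 147, 164 and 159.9 CPM to 205, 196 and 206 CPM in WT (0.37, adjusted p 9.96e-06, SE 0.06). In the libraries labelled KO it rose from 151, 152 and 150.3 CPM to 228, 225 and 212 CPM (0.55, adjusted p 7.25e-10, SE 0.06). For Tfe3 and Mitf every LPS 2 h library lay above every Control 2 h library of the same label. At Control 0 h Mitf stood at 199.9, 197 and 189 CPM in WT, which overlapped LPS 2 h. In KO it stood at 196, 198 and 183 CPM at Control 0 h, below LPS 2 h.

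Markers of other cells differed between LPS and Control at 2 h as well. In WT the granulocyte precursor sum was 19.3 to 32.9 CPM at Control 2 h and 45.4 to 65.9 CPM at LPS 2 h. Of 5 tested markers 3 were called higher. The WT sum was also above its Control 2 h range at Control 0 h (47.2 to 54.4 CPM) and palmitate 2 h (43.1 to 55.7 CPM). In KO it went from 64.5 to 125 CPM to 118 to 203 CPM, which overlapped, with 1 marker higher. On the osteoclast list Acp5 was called higher in WT and Acp5 and Mmp9 in KO, and of the 6 macrophage markers 1 was lower in each. The part of these markers in the changes at 2 h was not tested.

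The paralog Tfec, which is not among the 6 genes and is known to be largely restricted to the macrophage lineage, moved far more than they did. It had 9.68, 8.77 and 8.15 CPM at Control 2 h and 75.1, 71.5 and 79.1 CPM at LPS 2 h in the libraries labelled WT, a log2 fold change of 3.09 (adjusted p 3.83e-20, SE 0.18). In those labelled KO it went from 11.2, 11.1 and 11.2 CPM to 94.9, 86.9 and 90.2 CPM, a log2 fold change of 3.02 (adjusted p 2.71e-20, SE 0.17). Under LPS at 24 h the mean of Tfec was 10.3 ± 2.03 CPM in WT, against 15.0 ± 2.35 CPM at Control 24 h (-0.52, adjusted p 0.0309), and 10.0 ± 1.01 CPM in KO, against 13.2 ± 1.80 CPM (-0.38, adjusted p 0.124). The call in WT was lost without Control 24 h library 1 (-0.41, adjusted p 0.140) or LPS 24 h library 3 (-0.36, adjusted p 0.205).

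**Figure D2:**
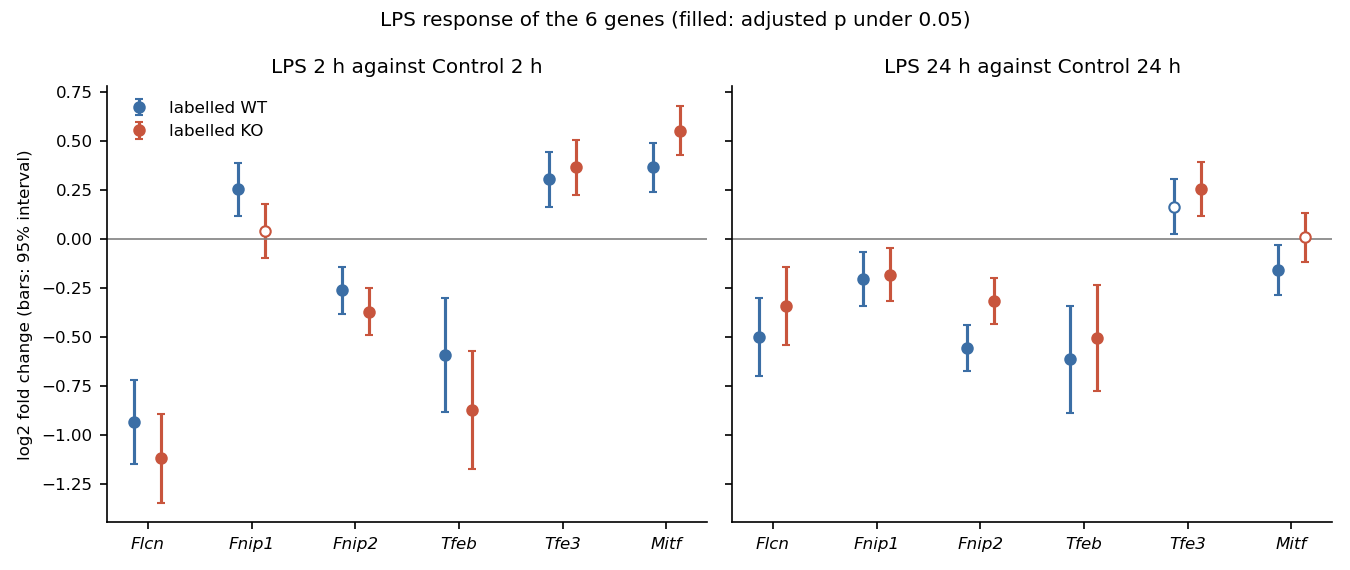
Log2 fold change of the 6 genes (y axis) under LPS against the Control of the same time, at 2 h (left) and 24 h (right), with 95% intervals of the fit, libraries labelled WT in blue and KO in red and filled points for an adjusted p under 0.05. Flcn, Fnip2 and Tfeb lie below 0 at both times, Tfe3 lies above 0 (0.30 and 0.37 at 2 h, 0.16 and 0.25 at 24 h), and Mitf lies well above 0 at 2 h (0.37 and 0.55) but not at 24 h (-0.16 and 0.01).

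The lower level of Tfeb beside higher Tfe3 and Mitf changed the make-up of the trio. Tfeb held 12.9 ± 0.613% of the summed CPM per kb of Tfeb, Tfe3 and Mitf at Control 2 h and 7.30 ± 1.22% at LPS 2 h in the libraries labelled WT, with the lowest Control library at 12.5% and the highest LPS library at 8.49%. Under the KO label the share went from 13.3 ± 1.39% to 5.72 ± 0.291%, with extremes of 12.5% and 6.05%. Within the FNIP pair, Fnip2 held 73.6 ± 1.15% at Control 2 h and 66.2 ± 0.412% at LPS 2 h in WT, and 69.5 ± 0.797% and 63.1 ± 0.685% in KO. Neither share overlapped between Control and LPS at 2 h. With the longest transcript as the length the Tfeb shares were higher throughout, at 21.1% and 12.4% in WT and 21.6% and 9.86% in KO, and again did not overlap, while the Fnip2 shares moved by less than their SD. An exact permutation test of 3 libraries against 3 cannot go below a p of 0.10, so these shares are given as values.

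**Figure D3:**
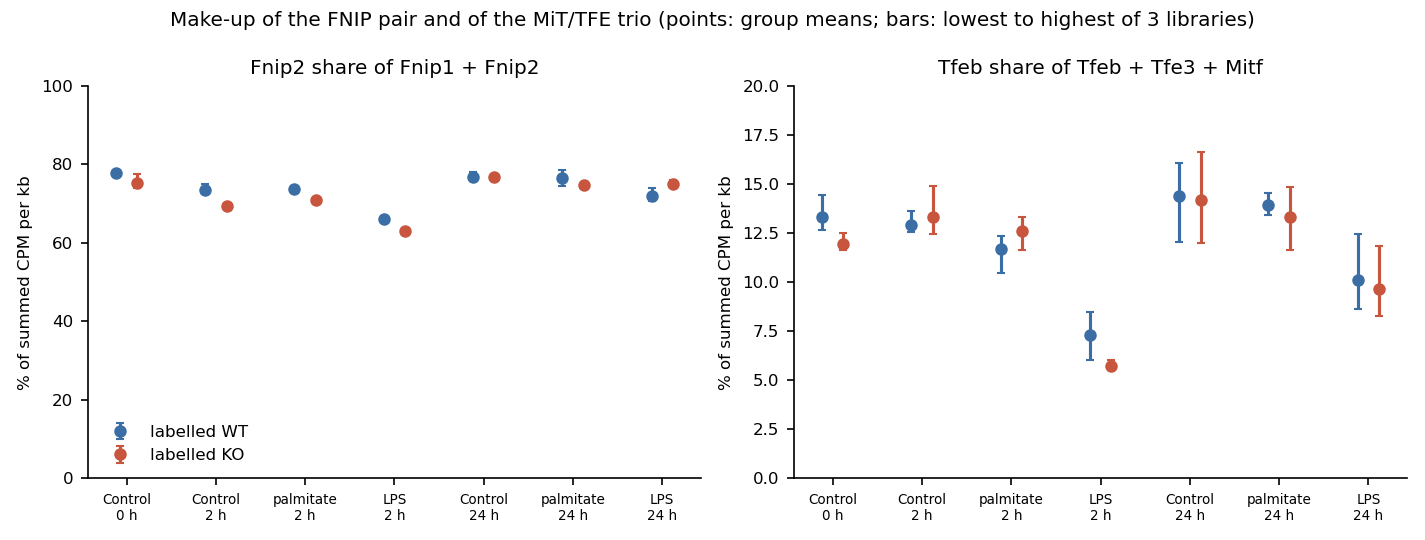
Share of Fnip2 in the summed CPM per kb of Fnip1 and Fnip2 (left, y axis in % from 0 to 100) and of Tfeb in that of Tfeb, Tfe3 and Mitf (right, y axis in % from 0 to 20) in the 7 conditions, as group means with bars from the lowest to the highest of 3 libraries. Both shares are lowest at LPS 2 h, at 66.2% and 7.30% in the libraries labelled WT (blue) and 63.1% and 5.72% in those labelled KO (red).

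By 24 h of LPS, Flcn, Fnip2 and Tfeb were still below Control, Fnip1 was also lower, and Mitf was no longer higher. In the libraries labelled WT, 5 of the 6 genes were called, all lower, against 39.5% of all genes called and 19.9% called lower. In those labelled KO, 4 were lower and 1 higher, against 40.9% of all genes called, 21% lower and 19.9% higher. The groups did not overlap for 6 of the 6 genes in WT and 5 in KO, against 48.1% and 50.2% of all genes. The median log2 fold change of the 6 genes was -0.35 in WT and -0.25 in KO, and that of all genes -0.01 in both.

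Fnip2 had 612, 560.4 and 579.7 CPM at Control 24 h and 419, 378 and 391 CPM at LPS 24 h in the libraries labelled WT, a log2 fold change of -0.56 (adjusted p 3.78e-11, SE 0.06). In those labelled KO it had 561, 550.4 and 592 CPM, then 457, 455 and 456 CPM (-0.32, adjusted p 1.61e-05, SE 0.06). Neither pair of groups overlapped. Flcn went from 74.7, 76.1 and 67.0 CPM to 51.5, 47.7 and 54.2 CPM in WT (-0.50, adjusted p 6.99e-05, SE 0.10). In KO it went from 64.1, 67.3 and 76.9 CPM to 56.4, 54.9 and 53.9 CPM (-0.34, adjusted p 0.00504, SE 0.10), a call that was lost without Control 24 h library 3 (-0.25, adjusted p 0.0776). Each LPS library of Flcn lay below each Control library of its label. Tfeb fell from 43, 32.1 and 41.7 CPM to 21.9, 30 and 23.9 CPM in WT (-0.61, adjusted p 0.000294, SE 0.14). In KO it fell from 37.7, 44.1 and 32.7 CPM to 24.3, 23.3 and 32.4 CPM (-0.51, adjusted p 0.00237, SE 0.14), and the groups were separated by only a small margin in both.

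Fnip1, by contrast with 2 h, was lower under LPS at 24 h in both labels. It had 146, 152 and 155 CPM at Control and 125, 129.9 and 138 CPM under LPS in WT (-0.20, adjusted p 0.0175, SE 0.07), and 143, 140.2 and 157 CPM against 135, 131 and 123 CPM in KO (-0.18, adjusted p 0.0328, SE 0.07). The call in WT was lost without Control 24 h library 2 (-0.20) or 3 (-0.18) or LPS 24 h library 1 (-0.17), and the call in KO without Control 24 h library 3 (-0.13), LPS 24 h library 2 (-0.19) or LPS 24 h library 3 (-0.14). Tfe3 rose from 152, 129.8 and 141 CPM to 169.5, 173 and 161 CPM in the libraries labelled KO (0.25, adjusted p 0.00286, SE 0.07). In WT it had 127, 143 and 137 CPM, then 146, 156 and 155 CPM, a log2 fold change of 0.16 (adjusted p 0.0646, SE 0.07). That value passed the threshold without Control 24 h library 2 (0.20) or LPS 24 h library 1 (0.20). Mitf had a log2 fold change of -0.16 in WT (adjusted p 0.0448, SE 0.06), which was lost without Control 24 h library 1 (-0.16), 2 (-0.16) or 3 (-0.14) and without LPS 24 h library 2, which stood at 126 CPM beside 156 and 154 CPM (-0.07, adjusted p 0.468), and when only the 6 libraries compared were fitted (-0.16, adjusted p 0.118). In KO its log2 fold change was 0.01 (adjusted p 0.94, SE 0.06).

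The sum of the osteoclast marker list rose beside these values at LPS 24 h, from 58.5 to 61.6 CPM in the Control 24 h libraries labelled WT to 344 to 490.3 CPM, and from 69.4 to 72.3 CPM to 300.1 to 355 CPM in KO. Of its 6 markers 4 were tested, and the higher ones were Mmp9 and Acp5, which macrophages also express, while Dcstamp was called lower in KO (-2.24, adjusted p 0.0226). The defining markers Calcr and Ocstamp reached at most 0.760 and 1.37 CPM in any library. Of the 6 macrophage markers, 4 were higher and 2 lower at LPS 24 h in both labels. The granulocyte precursor sum was lower at LPS 24 h, at 30.6 to 33 CPM against 50.8 to 61.0 CPM in WT and 42 to 63.1 CPM against 127 to 198 CPM in KO. The part of these lists in the results above was not tested, and in bulk libraries fewer cells of a type and less RNA per cell cannot be told apart.

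The 2 LPS times were also compared with each other, without subtracting the change of Control between the same times. In the libraries labelled WT 4 of the 6 genes were called (1 higher, 3 lower at 24 h), against 47.4% of all genes (22.5% higher, 24.9% lower), and in those labelled KO 6 were called (3 higher, 3 lower), against 49.2% (23.6% and 25.6%). Mitf was lower at 24 h than at 2 h by log2 fold changes of -0.48 (adjusted p 1.4e-08, SE 0.06) in WT and -0.47 (adjusted p 2.07e-08, SE 0.06) in KO. Fnip1 was lower by -0.49 (adjusted p 6.13e-08, SE 0.07) and -0.36 (adjusted p 3.52e-05, SE 0.07). Flcn was higher at 24 h by 0.41 (adjusted p 0.00244, SE 0.11) and 0.76 (adjusted p 2.45e-07, SE 0.12), so that it stood between its level at LPS 2 h and that of the Controls.

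Tfe3 was lower at LPS 24 h than at 2 h, by -0.29 (adjusted p 0.000535, SE 0.07) in WT and -0.23 (adjusted p 0.00616, SE 0.07) in KO, the latter lost without LPS 2 h library 1 (-0.15) or LPS 24 h library 3 (-0.19). Fnip2 had a log2 fold change of -0.10 in the libraries labelled WT (adjusted p 0.188, SE 0.06) and of 0.45 in those labelled KO (adjusted p 2.15e-08, SE 0.06). Tfeb had 0.12 in WT (adjusted p 0.556, SE 0.15) and 0.47 in KO (adjusted p 0.0119, SE 0.16), a call that was lost without LPS 2 h library 3 (0.42) or LPS 24 h library 3 (0.31). These comparisons share the LPS libraries with the comparisons against Control. In Control, Fnip2 also differed between the times, at 508 ± 18.4 CPM at 2 h and 584 ± 26.1 CPM at 24 h in WT. In KO it had 433 ± 22.6 and 568 ± 21.6 CPM. Against the Control of the same time Fnip2 was called lower at 2 h and at 24 h, by -0.26 and -0.56 in WT and -0.37 and -0.32 in KO.

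Palmitate left no call among the 6 genes. In 24 tests, 6 genes at 2 times under 2 labels, 0 passed the threshold, 1 had an unadjusted p under 0.05 and DESeq2 gave 0. Log2 fold changes lay between -0.16 and 0.10. The background was low as well, since 0.275% of all genes were called at 2 h in WT, 0.112% at 2 h in KO, 0.852% at 24 h in WT and 0.877% at 24 h in KO. An unadjusted p under 0.05 was held by 866 of the 11624 genes tested at 2 h in WT and 536 in KO. At 24 h it was held by 1049 in WT and 927 in KO. Among the 6 genes, the value with the unadjusted p under 0.05 was Fnip2 at 24 h in the libraries labelled KO. It had 561, 550.4 and 592 CPM in Control and 492, 525 and 511 CPM under palmitate. Its log2 fold change was -0.16, with a 95% interval of -0.28 to -0.04 and an adjusted p of 0.345. For Flcn the intervals were -0.25 to 0.14 in WT and -0.22 to 0.17 in KO at 24 h, and for Tfeb -0.35 to 0.18 and -0.40 to 0.13. For Tfeb a fall of the size seen under LPS at 24 h (-0.61 and -0.51) lay outside these intervals. In KO that did not hold without Control 24 h library 3 (-0.25, SE 0.15) or palmitate 24 h library 3 (-0.23, SE 0.15).

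Time in Control was tested over both labels together. At 2 h against 0 h, 2 of the 6 genes were called, both lower, against 16.7% of all genes called and 7.36% called lower. Fnip2 had 693, 700.0 and 673 CPM at 0 h in the libraries labelled WT and 576, 637 and 556 CPM in those labelled KO, above all 6 libraries at 2 h. Its log2 fold change was -0.44 (adjusted p 3.52e-12, SE 0.04). Mitf had 199.9, 197 and 189 CPM at 0 h in WT and 196, 198 and 183 CPM in KO, again above every library at 2 h (-0.33, adjusted p 6.95e-08, SE 0.04). At 24 h against 0 h, 3 genes were called, all lower, against 16.5% of all genes called and 8.62% called lower. They were Mitf (-0.27, adjusted p 9.83e-06, SE 0.04), Fnip2 (-0.15, adjusted p 0.00994, SE 0.04) and Fnip1 (-0.15, adjusted p 0.0262, SE 0.05). In WT the mean of Fnip2 went from 689 ± 14.1 CPM at 0 h to 584 ± 26.1 CPM at 24 h, without overlap. In KO it went from 590 ± 41.9 to 568 ± 21.6 CPM, and the libraries overlapped. The call of Fnip2 was lost without KO Control 0 h library 2 (-0.11) or WT Control 24 h library 2 (-0.13). That of Fnip1 was lost without any of 7 single libraries (for example -0.13 without KO Control 0 h library 1). Markers of other cells moved with time in Control too. At 24 h Kit and Cpa3 of the mast cell list and S100a8 and Ltf of the granulocyte precursor list were called higher, Acp5 and Ctsk of the osteoclast list lower, and of the 6 macrophage markers 2 were higher and 3 lower. The mast cell and basophil sum went from 0.362 to 2.38 CPM at 0 h to 1.89 to 3.77 CPM at 24 h in WT and from 1.37 to 3.53 CPM to 5.21 to 7.65 CPM in KO. In WT the granulocyte precursor sum was 47.2 to 54.4 CPM at 0 h and 19.3 to 32.9 CPM at 2 h. At 24 h it was 50.8 to 61.0 CPM. The KO sums were 72.9 to 81.3, 64.5 to 125 and 127 to 198 CPM at the same times. At 2 h Kit was called higher and Acp5 lower. The part of these markers in the changes with time was not tested. What changed in the cultures between 0 and 2 h is not given in the sources used here.

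The genotype labels were compared within each condition and over the mean of the 7 conditions. Fnip2 was the only one of the 6 genes called in a single condition, 3 times, each time lower in the libraries labelled KO. The paper that reported these data lists Fnip2 among genes that differed between its genotypes in all its conditions and were bound by IRF5. The choice of Fnip2 was therefore not independent of this comparison. The paper's conditions included adipose tissue macrophages, and its rule included a threshold on fold change, which the calls here lack. The counts of called members were 1 of 6 at Control 0 h (12.5% of all genes called, 6.06% lower), 1 at palmitate 2 h (0.146%, 0.043% lower) and 1 at LPS 2 h (0.465%, 0.163% lower). No member was called at Control 2 h (0.49% of all genes), Control 24 h (0.12%), palmitate 24 h (0.0688%) or LPS 24 h (0.146%). Of the 42 tests, 12 had an unadjusted p under 0.05, and DESeq2 called 4, the added one being Fnip2 at Control 2 h. Among the 11624 genes tested, an unadjusted p under 0.05 was held by 2917 at Control 0 h and 1172 at Control 2 h. It was held by 1032 at palmitate 2 h and 1342 at LPS 2 h. At 24 h the counts were 587 in Control, 891 under palmitate and 1056 under LPS. The labels did not overlap for 3 of the 6 genes at Control 0 h (28% of all genes), 1 at Control 2 h (16.9%), 2 at palmitate 2 h (16.1%), 2 at LPS 2 h (12.8%), 0 at Control 24 h (11.6%), 3 at palmitate 24 h (12.5%) and 2 at LPS 24 h (13.4%).

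At Control 0 h the 3 libraries labelled KO, listed above, lay below the 3 labelled WT for Fnip2, with a log2 fold change of -0.22 (adjusted p 0.00787, SE 0.06). This call was lost without KO library 1 (-0.20, adjusted p 0.0595) or 3 (-0.18, adjusted p 0.0978). At Control 2 h the 3 KO libraries were also lower (-0.23, adjusted p 0.0584, SE 0.06), a value that passed when only these 6 libraries were fitted (-0.23, adjusted p 0.011) and with DESeq2 (-0.23, adjusted p 0.0233). At palmitate 2 h the levels were 575, 541 and 523 CPM in WT and 473, 449 and 449 CPM in KO, and the call (-0.26, adjusted p 0.0487, SE 0.06) was lost without any 1 of the 6 libraries, with values from -0.29 to -0.22. At LPS 2 h the difference was -0.34 (adjusted p 0.00143, SE 0.06), kept without each single library and lost when only these 6 libraries were fitted (-0.34, adjusted p 0.161). At Control 24 h the labels overlapped (-0.04, adjusted p 1). At palmitate 24 h the 3 KO libraries were lower (-0.17, adjusted p 0.426) and at LPS 24 h higher (0.20, adjusted p 0.179).

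**Figure D4:**
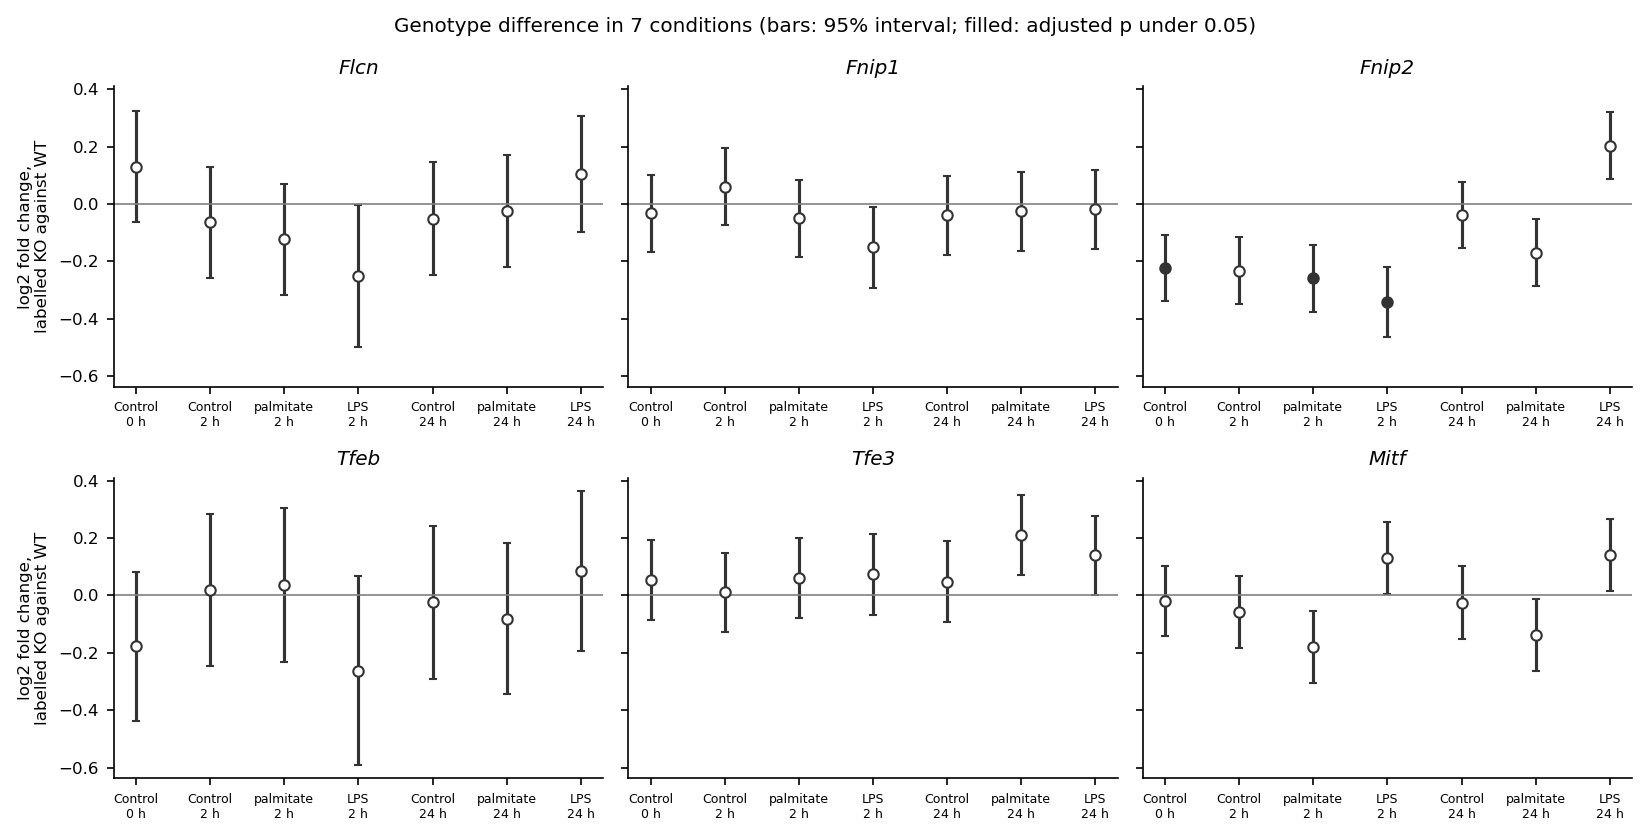
Log2 fold change between the labels, KO over WT (y axis), in each of the 7 conditions (x axis) for the 6 genes, with 95% intervals of the fit and filled points for an adjusted p under 0.05. Filled points appear for Fnip2 at Control 0 h (-0.22), palmitate 2 h (-0.26) and LPS 2 h (-0.34), and the Fnip2 value at LPS 24 h is 0.20.

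Over the mean of the 7 conditions, 2 of the 6 genes were called (1 higher, 1 lower), against 11.4% of all genes called (6.03% higher, 5.33% lower). Fnip2 was lower in the libraries labelled KO (-0.15, adjusted p 4.83e-06, SE 0.02) and Tfe3 higher (0.09, adjusted p 0.0291, SE 0.03). The call of Tfe3 was lost without any of 6 single libraries, for example WT Control 0 h library 1 (0.08, adjusted p 0.0523). Flcn (-0.04, 95% interval -0.12 to 0.04), Fnip1 (-0.04, -0.09 to 0.01), Tfeb (-0.06, -0.16 to 0.05) and Mitf (-0.02, -0.07 to 0.03) did not pass. The interaction of genotype label with LPS or palmitate was called for 0 of the 6 genes in 24 tests by edgeR and by DESeq2, with 3 at an unadjusted p under 0.05. Among the 11624 genes tested, 810 passed that unadjusted threshold for LPS 2 h and 486 for palmitate 2 h. At 24 h the counts were 628 for LPS and 411 for palmitate. Of all genes 0% were called for LPS 2 h, palmitate 2 h and palmitate 24 h, and 0.0086% for LPS 24 h. The interactions of the 6 genes lay between -0.28 and 0.24.

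Markers of other cells differed between the labels beside these values. The 7 granulocyte precursor markers summed to 19.3 to 83.7 CPM in the libraries labelled WT and 42 to 203 CPM in those labelled KO, and 5 of them were tested. The 4 fibroblast markers, 2 of them tested, summed to 0 to 52.1 CPM in WT and 0 to 286 CPM in KO, almost all of it Col1a1 and Col1a2, while Dcn and Pdgfra reached at most 0.765 and 1.01 CPM. The 6 mast cell and basophil markers summed to 0.362 to 6.23 CPM in WT and 1.37 to 8.10 CPM in KO, with Tpsb2 and Cma1 at 0 in every library, and the B cell and dendritic cell lists to at most 13 and 10.2 CPM. At Control 0 h the fibroblast sum was 0.132 to 0.905 CPM in WT and 37.8 to 63.3 CPM in KO, and at LPS 2 h 0 to 0.371 CPM in WT and 0.759 to 132 CPM in KO. The granulocyte precursor sums of the labels did not overlap in any of the 7 conditions and were higher in KO in each. This held where Fnip2 was called lower in KO (for example 47.2 to 54.4 CPM in WT and 72.9 to 81.3 CPM in KO at Control 0 h), at Control 24 h, where Fnip2 overlapped (50.8 to 61.0 and 127 to 198 CPM), and at LPS 24 h, where Fnip2 was higher in KO (30.6 to 33 and 42 to 63.1 CPM). The part of these cells in the genotype differences was not tested.

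The other genes of the pathway were read from lists of its complexes, beside the shares of all genes called given above (23.1% in WT and 23.9% in KO at LPS 2 h, 39.5% and 40.9% at 24 h). C9orf72, the partner of SMCR8 in a complex related in structure to folliculin and FNIP, stood at 32.9, 35.1 and 32.3 CPM at Control 2 h and 114, 113 and 109.8 CPM at LPS 2 h in the libraries labelled WT. Its log2 fold change was 1.74 (adjusted p 2.66e-22, SE 0.09) there and 1.72 (adjusted p 8.86e-22, SE 0.09) in KO, and 0.46 and 0.41 at 24 h. Smcr8 itself was at -0.02 and -0.03 at LPS 2 h (adjusted p 0.874 and 0.824), so that of the 3 genes on this list only C9orf72 was called at 2 h.

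Of the 10 genes of the Rag GTPases and their lysosomal anchor (Ragulator and Slc38a9), 9 were tested, and at LPS 2 h 0 were higher and 1 lower in WT and 0 higher and 2 lower in KO. At LPS 24 h the counts were 1 and 3 in WT and 0 and 2 in KO. The list medians were -0.04 in WT and -0.25 in KO at 2 h, and 0.04 and -0.08 at 24 h. Those of all genes were -0.01 in both labels at both times. Rragd, a RagD gene that is itself a reported target of the TFEB family, fell at 24 h from 19.1, 18.7 and 15.4 CPM to 4.28, 6.95 and 5.82 CPM in WT, a log2 fold change of -1.62 (adjusted p 2e-11, SE 0.17). In KO it fell from 19.6, 21.5 and 15.6 CPM to 7.45, 5.98 and 6.15 CPM (-1.51, adjusted p 5.17e-11, SE 0.16). Rragc was lower at 24 h by -0.40 (adjusted p 3.12e-06, SE 0.07) and -0.30 (adjusted p 0.000214, SE 0.07). Rraga, which pairs with them, had -0.11 and -0.08 (adjusted p 0.533 and 0.645).

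Upstream of the Rag proteins, 13 of the 14 genes of the GATOR complexes and amino acid sensors were found and tested. Of these 1 was higher and 2 lower at LPS 2 h in both labels, and at 24 h 2 were higher and 2 lower in WT and 2 higher and 3 lower in KO. Sesn1, a leucine sensor gene, had a log2 fold change of -0.88 (adjusted p 8.03e-08, SE 0.12) in WT and -1.43 (adjusted p 1.66e-13, SE 0.13) in KO at 2 h, and -0.77 and -1.11 at 24 h. The 8 genes of mTORC1 and its TSC brake gave 0 higher and 1 lower at LPS 2 h in WT, and 1 and 1 in KO. At 24 h 1 was higher in WT and 3 in KO, with Mtor at 0.31 in both (adjusted p 0.00815 and 0.00662). The WT call of Mtor was lost without Control 24 h library 2 (0.25, adjusted p 0.0609). Of the 9 genes of AMPK and LKB1, a kinase pathway that acts on FNIP1, 0 were called at LPS 2 h. At 24 h 4 were lower in WT, and 3 lower and 1 higher in KO, and Prkag2 had -0.87 (adjusted p 9.83e-06, SE 0.16) and -1.13 (adjusted p 7.09e-08, SE 0.16).

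Among the 6 genes of the TFEB phosphatase calcineurin and of factors that act against TFEB, 2 were higher and 0 lower at LPS 2 h in WT, and 1 and 1 in KO, while 0 were higher and 3 lower at 24 h in both. Map4k3, a kinase that phosphorylates TFEB, had 0.41 (adjusted p 4.24e-05, SE 0.08) and 0.29 (adjusted p 0.00361, SE 0.08) at 2 h, the latter lost without KO LPS 2 h library 2 (0.23, adjusted p 0.0527). At 24 h it had -0.86 (adjusted p 1.26e-12, SE 0.08) and -0.75 (adjusted p 3.46e-11, SE 0.08). Zkscan3, reported as a repressor of the same target genes, had -0.49 (adjusted p 0.0575) in WT and -0.74 (adjusted p 0.00348) in KO at 2 h. The WT value passed with all genes of at least 1 count (adjusted p 0.0433), with only the libraries compared (adjusted p 0.0403), with DESeq2 (adjusted p 0.0490) and without WT LPS 2 h library 3 (-0.71, adjusted p 0.0202). The KO call was lost without KO LPS 2 h library 2 (-0.60, adjusted p 0.05003). Of the 3 GABARAP genes, whose proteins bind the folliculin complex on damaged membranes, 0 were called at LPS 2 h in WT and 1 was lower in KO, while at 24 h 1 was higher and 1 lower in WT and 2 were lower in KO. Gabarapl1 was lower at 24 h by -0.96 (adjusted p 2.37e-13, SE 0.09) and -0.89 (adjusted p 1.85e-12, SE 0.09).

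Genes reported as targets of the TFEB family did not move as a block. Of the 24 listed here 23 were tested, and 3 were higher and 3 lower at LPS 2 h in WT, 4 and 2 in KO. The list median at 2 h was -0.02 and -0.05, beside -0.01 for all genes. Sqstm1, the autophagy receptor p62, rose at 2 h by 1.14 (adjusted p 2.56e-21) and 1.18 (adjusted p 6.82e-22), and was at -0.11 in WT at 24 h (adjusted p 0.152), or -0.20 without WT LPS 24 h library 2 (adjusted p 0.0107). Cln3, a lysosomal membrane protein gene, rose at 2 h by 0.76 (adjusted p 1.49e-07) and 0.83 (adjusted p 1.6e-08), while Vps18, of the tethering complex for lysosome fusion, was lower, at -0.42 (adjusted p 7.74e-05) and -0.64 (adjusted p 3.08e-08).

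At LPS 24 h more of these reported targets were lower than higher, 10 against 4 of the 23 in WT and 9 against 4 in KO, beside 19.9% of all genes lower and 19.6% higher in WT and 21% and 19.9% in KO. The list medians were -0.11 and -0.02, and those of all genes -0.01 in both. Atp6v0d2, a proton pump subunit gene, fell from 83.4, 78.7 and 89.3 CPM to 6.67, 3.97 and 3.67 CPM in WT, a log2 fold change of -4.14 (adjusted p 5.8e-19, SE 0.26). In KO it fell from 91.9, 114 and 109.9 CPM to 8.95, 8.03 and 7.47 CPM (-3.70, adjusted p 3.07e-19). Gpnmb, a glycoprotein of lysosomes, fell by log2 fold changes of -0.88 (adjusted p 2.63e-17) and -0.93 (adjusted p 4.45e-18). Acp5, an acid phosphatase also on the osteoclast list, rose by 2.01 (adjusted p 2.94e-22) and 1.86 (adjusted p 1.65e-21), and Uvrag by 0.33 (adjusted p 0.000741) and 0.41 (adjusted p 3.2e-05). Mcoln1, the lysosomal calcium channel that signals to calcineurin, had -0.16 and -0.07 (adjusted p 0.263 and 0.686), and Ctsk 0.33 and -0.15 (adjusted p 0.552 and 0.781).

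**Figure D5:**
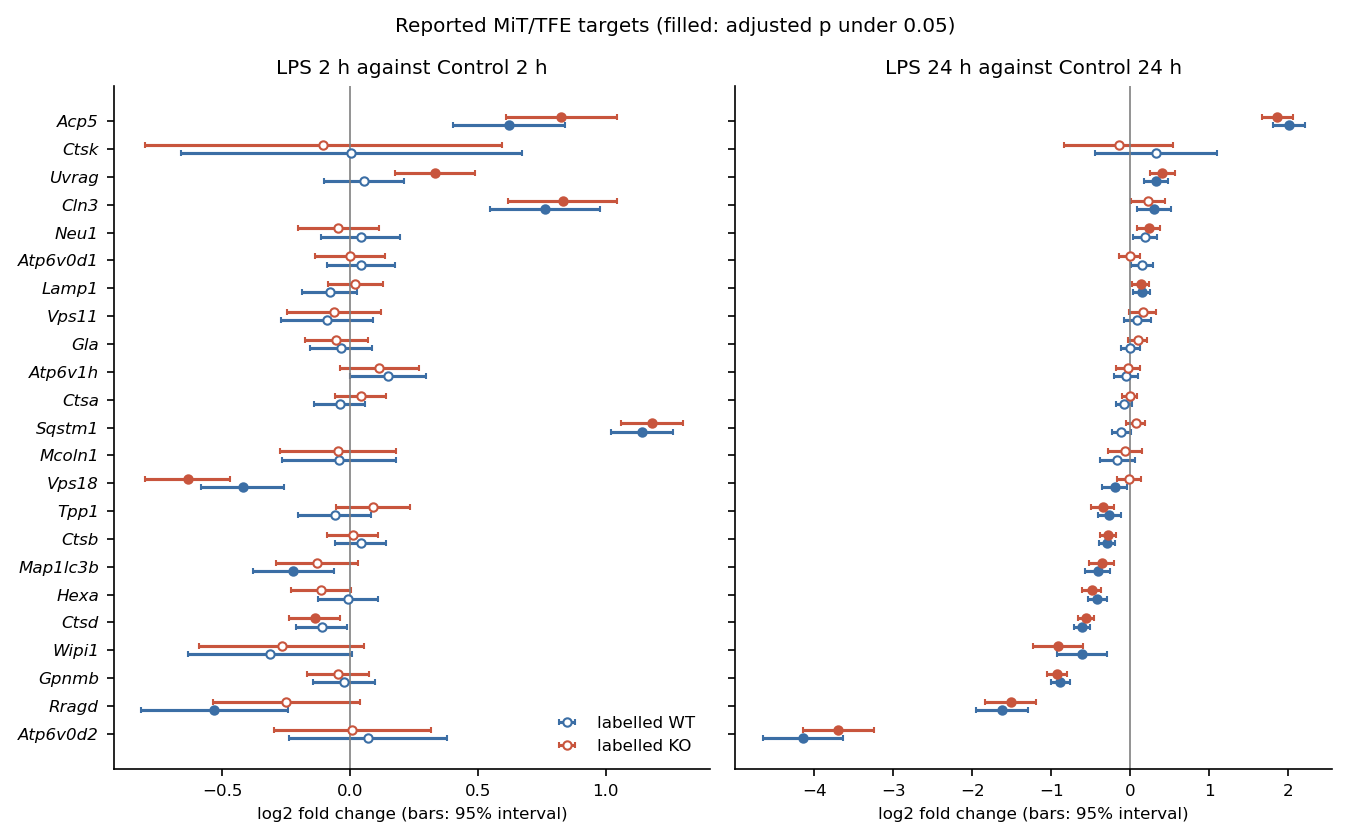
Log2 fold change (x axis, with 95% intervals of the fit; the scales of the panels differ) of 23 reported TFEB family targets (rows, ordered by the value in WT at 24 h) under LPS at 2 h (left) and 24 h (right), libraries labelled WT in blue and KO in red, filled for an adjusted p under 0.05. Sqstm1 stands out at 2 h (1.14 in WT), and at 24 h Atp6v0d2 (-4.14), Rragd (-1.62) and Gpnmb (-0.88) are lowest and Acp5 (2.01) highest in WT.

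Across the 14 group means of log2 CPM, Flcn and Tfeb had a Pearson r of 0.916, Fnip2 and Tfeb 0.878 and Flcn and Fnip2 0.760. Tfe3 ran against them, with r of -0.891 with Flcn, -0.871 with Tfeb and -0.795 with Fnip2. Fnip1 and Fnip2 had 0.0455, and Tfe3 and Mitf 0.534. The points share their libraries and their scaling, so these values describe the 14 groups only. Among the 11043 candidates (mean over libraries 1 CPM or more), the patterns most like that of Flcn were those of Cd300lb (r 0.985), Zfp36l2 (0.978) and Rgs2 (0.975). For Tfeb they were Eif4ebp2 (0.972), Mnt (0.964) and Paqr7 (0.959), and for Fnip2 Mfsd11 (0.931), Map3k1 (0.927) and Sh2d3c (0.918). Fnip1 was nearest to Kif1b (0.959), Osbpl8 (0.953) and Eef2 (0.948), Tfe3 to Mat2a (0.962), Plscr1 (0.959) and Cd14 (0.955), and Mitf to Bcl2l13 (0.937), Plekho2 (0.886) and Rbmxl1 (0.867).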

How the data were processed

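RNA-seq was made from stranded, ribodepleted total RNA of BMDM in 42 libraries. The authors aligned reads to mm10 with STAR 2.7.3a and deposited raw counts per gene, with no normalisation, and fastp 0.19.11 is named in the submitters' processing notes. The annotation release and whether counting used the strand are not given in the sources used here. Columns carry a group name only, and library numbers, which follow column order, pair nothing. Symbols and positions were taken from GENCODE annotation of GRCm38, and 32620 of 37310 identifiers had a symbol.

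With edgeR 4.0.16 (R 4.3.3) the 11624 genes left by filterByExpr were scaled by TMM and fitted in 1 quasi-likelihood model with 14 group means, and 24 comparisons plus 1 added later were tested with the F test, Benjamini-Hochberg adjustment over genes and a threshold of 0.05. The SE is the log2 fold change divided by the square root of F. The 42 replicate pairs differed by more than sampling noise (chi-square per degree of freedom 1.93 to 9.32). The floor of 3 counts covers counting error only. Likeness of pattern was Pearson's r of group means of log2 CPM (prior count 2). The 6 genes and all lists were chosen with earlier results of these data known. Named from the lists were 12 set genes and at most 2 called genes per direction, list and comparison, those with the smallest adjusted p, and 1 gene of the target list is not reported here and was left out of its counts. Alternatives were RLE size factors, all genes with at least 1 count, only the libraries compared, DESeq2 1.42.0, each library left out, exon union or longest transcript (for the shares chosen after seeing the data), and a prior count of 0.5. The fits were tested on simulated data in which 200 genes changed by 2-fold or more in the WT LPS 24 h group. Of the genes changed by 2-fold 90% were called, and 6.44% of the calls were false. Smaller changes, and changes in as many genes as under LPS, were not simulated.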

Additional observations from a re-analysis of the deposited data

Results flagged for a closer look

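The genotype difference of Fnip2 at LPS 24 h (0.20) was set against that at LPS 2 h (-0.34), a comparison chosen after the values had been seen, because every library labelled KO was lower at 2 h and every one higher at 24 h. The difference between them was 0.55 on the log2 scale (adjusted p 0.000962 in edgeR, SE 0.09), and 0.232% of all genes were called in the same comparison. Leaving out any single library kept the call. Fitting only the 12 libraries compared gave 0.54 with an adjusted p of 0.0694, and over all alternatives the value lay between 0.48 and 0.60. The other 5 genes were not called in it, the nearest being Flcn (0.36, SE 0.16, adjusted p 0.489). This comparison does not subtract Control, in which the genotype difference of Fnip2 was -0.23 at 2 h and -0.04 at 24 h. The interactions of Fnip2 with LPS, which do subtract it, were -0.11 (adjusted p 0.830) at 2 h and 0.24 (adjusted p 0.924) at 24 h. Neither interaction was called. The granulocyte precursor sum moved with these libraries, from 118 to 203 CPM at LPS 2 h to 42 to 63.1 CPM at LPS 24 h in those labelled KO and from 45.4 to 65.9 CPM to 30.6 to 33 CPM in those labelled WT, and its part in the difference was not tested. It was picked for its values and stands as a description of these 12 libraries.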

How the results depend on the processing

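Of 42 called results of the 6 genes, 28 kept their call under every alternative run for them, and over all 526 alternatives 479 kept it and 0 turned direction. Without single libraries the number of members called over the mean of the 7 conditions lay between 1 and 2, against 2 in the fit of all libraries, and with all genes of at least 1 count it was 1. For time in Control it lay between 3 and 5, against 5, and was 3 without WT Control 24 h library 2. The values that turned sign were uncalled. Mitf at LPS 24 h in KO (0.01) was -0.00088 with all genes of at least 1 count and -0.0019 with DESeq2, and between -0.021 and 0.052 without single libraries. Fnip1 at LPS 2 h in KO (0.04) lay between -0.054 and 0.10, and Tfeb at LPS 24 h against LPS 2 h in WT (0.12) between -0.026 and 0.25, without single libraries. Smcr8 at LPS 2 h in KO lay between -0.077 and 0.0017, and Ctsk at LPS 24 h in WT between -0.31 and 0.65, the lower end without LPS 24 h library 2. Of 57 results of other named genes 49 kept their call and direction under every alternative. Tfeb under palmitate at 24 h in KO (-0.14, uncalled) was -0.25 without KO Control 24 h library 3, -0.23 without KO palmitate 24 h library 3 and -0.01 without KO Control 24 h library 2. With all genes of at least 1 count Mitf at LPS 24 h in WT, Fnip1 at LPS 24 h in KO and Fnip1 at Control 24 h were not called, and DESeq2 gave 4 member calls between genotypes against 3. The cause was not tested. RLE size factors ended the Fnip2 call at palmitate 2 h (-0.25), and the same 18 genes of like pattern came with a prior count of 0.5. No paired analysis was possible because the columns of the count table carry no replicate numbers. Tfeb, with the fewest counts, had the widest intervals.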
